A study of Arabidopsis thaliana with 6 samples.

Results

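The 10 genes described here encode the enzymes that make tryptophan from chorismate in Arabidopsis thaliana. They were chosen by name and locus as the genes of that route, namely ASA1, ASA2, ASB1, PAT1, PAI1, PAI2, IGPS, TSA1, TSB1 and TSB2, and are 10 of the 26185 loci that had reads in these data. All 10 had reads in every library and all 10 passed the filter on low counts. Their messenger RNA was measured in 3-day-old etiolated seedlings in 6 libraries, 2 biological repeats in each of 3 groups. All groups have the Col-0 background and were kept dark at 22 °C, following cold imbibition at 4 °C and some hours of light. Col_MS is wild type on MS, a mineral medium for plant culture. Col_Kyn is wild type on MS with kynurenine supplied in the medium, labelled as 25 mM, and whether that unit is right could not be verified. wei8tar2_MS is the line wei8-/- tar2+/- on MS, in which WEI8 is another name of TAA1, and the labels do not say which progeny of the tar2 heterozygote were pooled. The labels do not say whether the repeats came from separate cultures. Each p-value therefore sets a group difference against the spread between these samples, which may be partly technical.

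Tryptophan is made in plastids from chorismate, the end product of the shikimate pathway, which also feeds phenylalanine and tyrosine. Anthranilate synthase, made of alpha and beta subunits, catalyses the committed step and is inhibited by tryptophan itself. A phosphoribosyltransferase, an isomerase and indole-3-glycerol phosphate synthase then build indole-3-glycerol phosphate, and the alpha and beta subunits of tryptophan synthase convert it to indole and join indole to serine. Tryptophan is in turn the precursor of the auxin indole-3-acetic acid, through the aminotransferases TAA1 and TAR2, and of indole glucosinolates and camalexin. L-kynurenine is known to inhibit those aminotransferases. Both the treatment and the mutant line therefore act on a step that consumes the product of the 10 genes.

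Libraries held 18138087 to 31807206 uniquely mapped reads in the tested genes. Levels are given below as CPM, counts scaled to library size with TMM factors, with replicate 1 before replicate 2 of each group. TAA1 stood at 37.8 and 38.7 CPM in untreated wild type, 38.4 and 41.5 with kynurenine and 7.89 and 8.36 in the mutant, and TAR2 at 10.1 and 8.11, 7.08 and 6.29, and 2.90 and 2.01, and both transcripts were lowest in the mutant libraries. PORA, a protochlorophyllide oxidoreductase gene that is abundant in darkness, was at 1097 to 1407 CPM in all 6 libraries. Of 3 flower markers, AP1 had no read and AP3 at most 2 reads per library. SEP3 had at most 1 read per untreated wild-type library and 7 to 13 in each treated or mutant library. It could pass the filter on low counts only through the treated and mutant libraries. Its log2 fold changes, 3.95 with kynurenine and 4.16 in the mutant, were not called (edgeR adjusted p = 0.167 and 0.0945). They rest on at most 1 read per Col_MS library and are not read as a group difference. The 4 root markers PIN2, SHV2, RHD6 and PLT1 summed to 56.8 to 73.2 CPM in Col_MS, 37.3 to 48.2 in Col_Kyn and 43.6 to 47.1 in wei8tar2_MS. The 4 photosynthesis markers summed to 5811 to 6401, 4429 to 10116 and 7285 to 7396 CPM, and the 5 seed reserve markers to 12.5 to 56.8, 1.26 to 19.3 and 17.3 to 27.9 CPM, with the highest seed reserve value in Col_MS replicate 1.

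At an adjusted p under 0.05, edgeR called 0 of the 10 genes in any comparison. It called 0.366% of all tested genes with kynurenine, 1.08% in wei8tar2_MS and 0.0281% between these 2 groups. DESeq2 called PAI1 lower with kynurenine (DESeq2 adjusted p = 0.0427), against 1.52% of tested genes called lower. The most prominent feature of the 10 genes lay within the wild-type control. In Col_MS replicate 1, 9 of the 10 genes had their highest level of the 6 libraries, against 28.5% of all tested genes, and ASA2 was the exception. The 10 levels together summed to 597 and 315 CPM without treatment, 315 and 286 in kynurenine-fed wild type, and 273 and 306 in the wei8tar2 libraries. The sum was thus about the same in Col_MS replicate 2 as in the treated and mutant libraries, and higher in Col_MS replicate 1. In whole seedlings, fewer cells expressing a gene and less RNA per cell cannot be told apart.

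**Figure D1:**
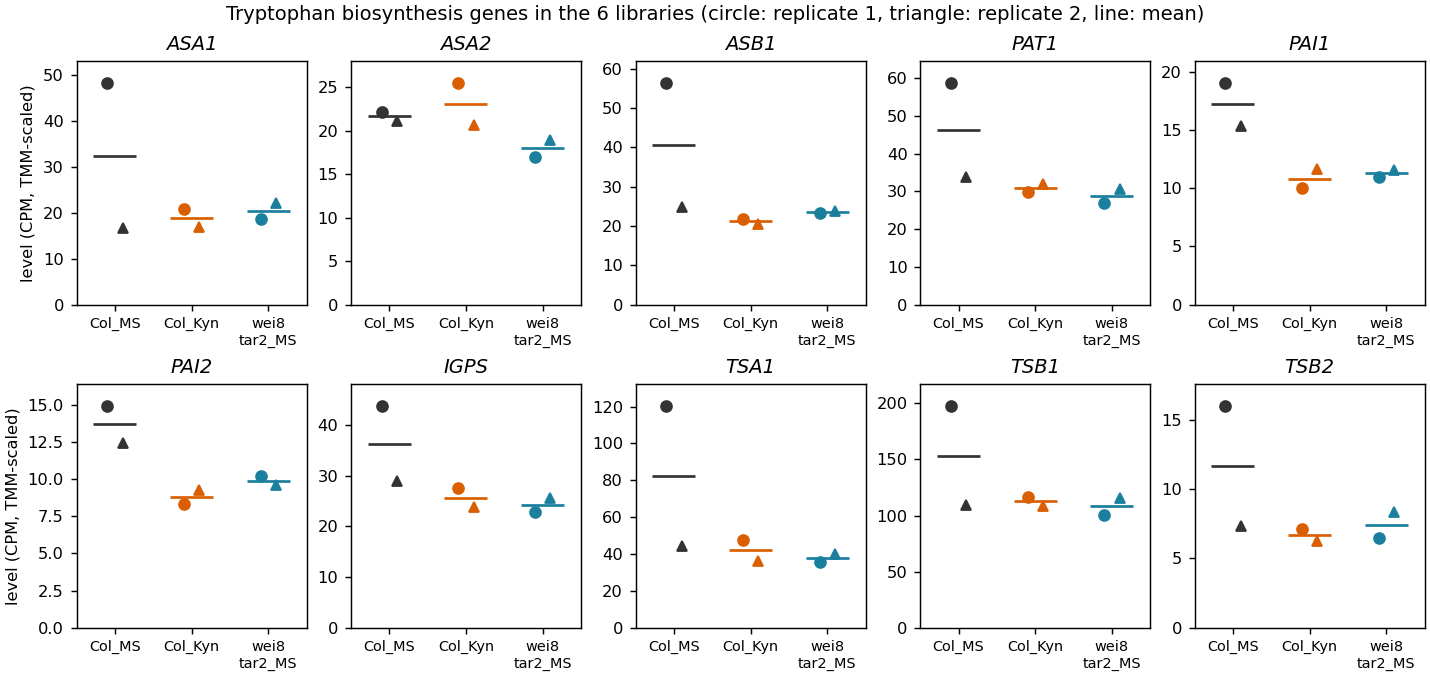
Level of each of the 10 tryptophan biosynthesis genes in CPM (TMM-scaled, linear axes starting at 0) in each library, with circles for replicate 1, triangles for replicate 2 and a line at the mean of the 2 libraries of a group. Col_MS replicate 1 is the highest point in every panel except that of ASA2, where Col_Kyn replicate 1 is highest at 25.5 CPM.

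Anthranilate synthase alpha is encoded by ASA1 (AT5G05730), at chromosome 5, 1719533 to 1722933 on the minus strand, and ASA2 (AT2G29690), at chromosome 2, 12693734 to 12697091 on the plus strand (TAIR10.1). ASA1 is known as the stress-inducible and main alpha gene, and ASA2 as the one with the steadier, lower activity. Their coding sequences were identical at 66.5% of aligned bases, so that reads of one can be told from the other, as the following stretch of 60 coding bases shows, with the 13 mismatched bases in capitals.
ASA1: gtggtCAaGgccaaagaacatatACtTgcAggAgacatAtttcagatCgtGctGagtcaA
ASA2: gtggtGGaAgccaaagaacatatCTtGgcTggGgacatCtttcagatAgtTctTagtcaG

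The ASA1 level was 48.3 and 16.6 CPM in the Col_MS pair, 20.9 and 17.0 under kynurenine and 18.8 and 22.2 in the mutant line. Its highest and its lowest value were both in Col_MS, and every other library lay between them. The fitted log2 fold change was -0.77 ± 0.42 (SE, 2 libraries against 2) with kynurenine, with an edgeR adjusted p of 0.394, and -0.66 ± 0.42 in wei8tar2_MS, with an edgeR adjusted p of 0.411. Leaving out Col_MS replicate 1 turned the sign, to 0.20 with kynurenine and 0.30 in wei8tar2_MS. Without Col_MS replicate 2 the same differences were -1.32, with an edgeR adjusted p of 0.0118, and -1.21, with an edgeR adjusted p of 0.0134.

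ASA2 was the steadiest gene between the Col_MS libraries, at 22.2 and 21.1 CPM, with 25.5 and 20.7 in Col_Kyn and 17.0 and 18.9 in wei8tar2_MS. Both mutant libraries lay below all 4 wild-type libraries, while the Col_Kyn libraries spanned the Col_MS ones. Of all tested genes, 29% had both mutant libraries below both Col_MS libraries and 18.8% had them below both Col_Kyn libraries. The log2 fold change was 0.10 ± 0.14 with kynurenine (SE; edgeR adjusted p = 0.763), turning to -0.065 without Col_Kyn replicate 1, and -0.27 ± 0.14 in wei8tar2_MS (edgeR adjusted p = 0.310). ASA2 was the only one of the 10 genes with an unadjusted edgeR p under 0.05 between the mutant and the kynurenine-fed wild type, against 4.32% of all tested genes. The log2 fold change was -0.37 ± 0.14 (SE), with an edgeR adjusted p of 1.00.

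The share of ASA1 in the summed RPKM of the alpha genes was 66.8% and 42.1% in untreated wild type, 43.2% and 43.2% with kynurenine and 50.5% and 52.1% in the mutant. RPKM here is the deposited value per kilobase, for which the listed gene lengths include introns (3353 bases for ASA1 against 2139 exonic bases in the RefSeq model), so it understates levels per exonic base. The share was near equal in both Col_Kyn libraries and higher in both mutant libraries, but the Col_MS values lay on either side of all others. With 2 libraries against 2, the smallest p of a two-sided exact permutation test is 0.333, and the share is given here without a test.

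The beta subunit, which supplies ammonia from glutamine, is encoded by ASB1 (AT1G25220), at chromosome 1, 8836835 to 8839609 on the minus strand. Its level was 56.3 and 24.9 CPM without treatment, 21.7 and 20.6 in kynurenine-fed wild type, and 23.3 and 23.7 in the wei8tar2 libraries. All treated and mutant libraries lay below Col_MS replicate 2 by a small margin, and Col_MS replicate 1 was 2.27 times the next highest library. Of all tested genes, 23.4% had both Col_Kyn libraries below both Col_MS libraries, and 29% had both mutant libraries below them. The log2 fold change was -0.94 ± 0.32 with kynurenine (SE; edgeR adjusted p = 0.218) and -0.79 ± 0.32 in wei8tar2_MS (SE; edgeR adjusted p = 0.222). These became -0.23 and -0.082 without Col_MS replicate 1, and without Col_MS replicate 2 they were -1.39 and -1.23, with edgeR adjusted p of 0.00346 and 0.00422.

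The ASB1 count is uncertain, because near-identical loci lie beside it on chromosome 1. AT1G24807, AT1G24909, AT1G25083 and AT1G25155 have gene spans identical to each other over 1895 to 2130 bases, and their coding sequences match ASB1 at 97.3% of aligned bases. Of the 50-base words in the ASB1 exons, 34.7% occur more than once in the genome, and the 4 copies hold no 50-base word of their own. The stretch below, coding bases 436 to 495 of ASB1, occurs letter for letter in AT1G24807, with no mismatch to mark in capitals.
ASB1: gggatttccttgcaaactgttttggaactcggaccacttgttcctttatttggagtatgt
AT1G24807: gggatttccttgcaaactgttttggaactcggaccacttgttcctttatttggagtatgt

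Reads from such a stretch cannot be assigned to a locus, yet in Col_MS replicate 1 the deposited counts were 1408, 1191, 950 and 722 for the copies and 1548 for ASB1. The copies are listed with different counts although their sequences are the same, and how the counting placed those reads is not given in the sources used here. Like ASB1, AT1G24807 was highest in Col_MS replicate 1, at 51.2 and 25.1 CPM in the Col_MS pair, 21.9 and 18.6 under kynurenine and 24.6 and 22.5 in the mutant line. ASB1 is also overlapped by AT1G25211 on the opposite strand, over 173 bases, with 1650 to 2777 reads per library, and no step of the library protocol marks strand.

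PAT1 (AT5G17990, named TRP1 in RefSeq), at chromosome 5, 5957080 to 5960201 on the plus strand, encodes the phosphoribosyltransferase that acts on anthranilate. Its level was 58.7 and 33.8 CPM in untreated wild type, 29.8 and 32.1 with kynurenine and 26.9 and 30.7 in the mutant. Col_MS replicate 2 stood just above the treated and mutant libraries, which spanned a narrow range. Among all tested genes, both libraries lay below both Col_MS libraries in 23.4% for Col_Kyn and 29% for wei8tar2_MS. The log2 fold change was -0.58 ± 0.23 with kynurenine (SE; edgeR adjusted p = 0.272) and -0.68 ± 0.23 in wei8tar2_MS (SE; edgeR adjusted p = 0.162). Leaving out Col_MS replicate 1 gave -0.13 and -0.23, and leaving out Col_MS replicate 2 gave -0.91 and -1.0, with edgeR adjusted p of 0.0161 and 0.0114.

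PAI1 (AT1G07780) and PAI2 (AT5G05590) encode phosphoribosylanthranilate isomerase and lie at chromosome 1, 2409865 to 2412777, and chromosome 5, 1666471 to 1668569, both on the minus strand. They are known as a duplicated family studied for DNA methylation of its copies in other accessions. The coding sequences differed at 5 of 828 bases, and 61.1% of the 50-base words of the PAI1 exons and 55.4% of those of PAI2 occur more than once in the genome. A shared stretch, coding bases 415 to 474 in each gene, shows how little separates them.
PAI1: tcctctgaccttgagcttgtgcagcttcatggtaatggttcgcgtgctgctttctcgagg
PAI2: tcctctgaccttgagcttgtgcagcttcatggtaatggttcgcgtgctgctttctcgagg

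The PAI1 level was 19.0 and 15.4 CPM without treatment, 9.995 and 11.6 in kynurenine-fed wild type, and 10.9 and 11.6 in the wei8tar2 libraries. That of PAI2 was 14.9 and 12.5 CPM in the Col_MS pair, 8.33 and 9.26 under kynurenine and 10.2 and 9.62 in the mutant line. For both isomerase genes the Col_MS libraries were close to each other and both lay above the other 4. Such a placing below Col_MS was found in 23.4% of all tested genes for Col_Kyn and 29% for wei8tar2_MS. AT5G05580 overlaps PAI2 by 61 bases on the opposite strand. It had 358 to 688 reads per library, against 162 to 410 for PAI2, and how reads in the overlap were assigned is not given. Together with ASA2, PAI1 and PAI2 were the genes whose Col_MS replicates differed least.

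The PAI1 log2 fold change was -0.68 ± 0.16 with kynurenine (SE; edgeR adjusted p = 0.123) and -0.61 ± 0.15 in wei8tar2_MS (SE; edgeR adjusted p = 0.0910). For PAI2 the values were -0.64 ± 0.15 (SE; edgeR adjusted p = 0.126) and -0.47 ± 0.15 (SE; edgeR adjusted p = 0.143). These were the lowest adjusted p-values of the 10 genes in both comparisons with Col_MS, and none passed 0.05. DESeq2 called PAI1 lower with kynurenine, with an adjusted p of 0.0427, and gave 0.0579 for PAI1 in wei8tar2_MS. With Col_MS replicate 1 left out, the PAI1 differences were -0.52 and -0.45 and the PAI2 differences -0.51 and -0.33, the most negative of the 10 genes, with edgeR adjusted p of 0.255 and 0.228 for PAI1. Without Col_MS replicate 2, edgeR called PAI1 in both comparisons, with adjusted p of 0.0396 and 0.0389, and PAI2 with kynurenine, with an adjusted p of 0.0480. The share of PAI1 was 43.5% to 47.8% of the summed RPKM across libraries, 51.7% to 56.1% of the counts and 49.7% to 54.1% per exonic base, so which gene was higher turned with the length used, and many reads could come from either.

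IGPS (AT2G04400, with no symbol in RefSeq), at chromosome 2, 1531148 to 1533737 on the plus strand, encodes indole-3-glycerol phosphate synthase, whose product is the branch point to indole. Its level was 43.7 and 28.9 CPM in untreated wild type, 27.5 and 23.8 with kynurenine and 22.8 and 25.7 in the mutant. Both Col_MS libraries lay above the other 4, replicate 2 by little, and the treated and mutant libraries overlapped. Both libraries lay below both Col_MS libraries in 23.4% of all tested genes for Col_Kyn and 29% for wei8tar2_MS. The log2 fold change was -0.49 ± 0.20 with kynurenine (SE; edgeR adjusted p = 0.264) and -0.58 ± 0.20 in wei8tar2_MS (SE; edgeR adjusted p = 0.157). It was -0.16 and -0.25 without Col_MS replicate 1, and without Col_MS replicate 2 it was -0.74 and -0.82, with edgeR adjusted p of 0.0343 and 0.0215. AT2G04410 overlaps IGPS by 41 bases on the opposite strand and had 1432 to 3170 reads per library, against 417 to 1201 for IGPS, and how reads in the overlap were assigned is not given in the sources used here.

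Tryptophan synthase alpha, which releases indole, is encoded by TSA1 (AT3G54640), at chromosome 3, 20223034 to 20225523 on the minus strand. Its level was 120.2 and 44.5 CPM without treatment, 47.4 and 36.4 in kynurenine-fed wild type, and 35.6 and 40.1 in the wei8tar2 libraries. Col_MS replicate 1 exceeded the next highest library 2.54-fold, the widest such margin of the 10 genes. The fitted differences were also the largest of the 10 genes in both comparisons with Col_MS, -0.97 ± 0.39 with kynurenine (SE; edgeR adjusted p = 0.274) and -1.12 ± 0.40 in wei8tar2_MS (SE; edgeR adjusted p = 0.173), and so were their standard errors except those of ASA1. They were -0.082 and -0.23 without Col_MS replicate 1, and -1.50 and -1.64 without Col_MS replicate 2, with edgeR adjusted p of 0.00923 and 0.00705 in the latter case.

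Tryptophan synthase beta, which joins indole to serine, is encoded by TSB1 (AT5G54810), at chromosome 5, 22264594 to 22266902 on the minus strand, and TSB2 (AT4G27070), at chromosome 4, 13586268 to 13588897 on the plus strand. TSB1 is known as the more active gene. Their coding sequences were identical at 85.4% of aligned bases and shared no 50-base word, and the stretch below shows a conserved part with its 8 mismatched bases in capitals.
TSB1: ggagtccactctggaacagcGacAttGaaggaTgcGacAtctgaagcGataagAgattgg
TSB2: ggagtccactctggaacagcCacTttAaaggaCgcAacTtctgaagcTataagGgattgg

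The TSB1 level was 197 and 110 CPM in the Col_MS pair, 117 and 109 under kynurenine and 101 and 115 in the mutant line. That of TSB2 was 16.0 and 7.34 CPM in untreated wild type, 7.08 and 6.23 with kynurenine and 6.46 and 8.32 in the mutant. In both genes Col_MS replicate 2 lay within the range of the treated and mutant libraries. TSB1 made up 93.3% to 95.2% of the summed beta RPKM. The ratio of TSB1 to TSB2 in RPKM was 14.0 and 16.9 without treatment, 18.7 and 19.7 with kynurenine and 17.7 and 15.7 in the mutant, lowest in Col_MS replicate 1 and highest in the kynurenine-fed libraries.

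The TSB1 log2 fold change was -0.45 ± 0.25 with kynurenine (SE; edgeR adjusted p = 0.402) and -0.51 ± 0.25 in wei8tar2_MS (SE; edgeR adjusted p = 0.294). For TSB2 it was -0.80 ± 0.34 (SE; edgeR adjusted p = 0.292) and -0.66 ± 0.34 (SE; edgeR adjusted p = 0.317). Leaving out Col_MS replicate 1 turned the TSB1 difference with kynurenine to 0.040 and the TSB2 difference in wei8tar2_MS to 0.0086, and the others were -0.020 for TSB1 in wei8tar2_MS and -0.13 for TSB2 with kynurenine. Without Col_MS replicate 2, edgeR called both genes lower in both comparisons, with adjusted p from 0.0176 to 0.0291.

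Taking the 10 genes as a list, 0 of 10 were called with kynurenine, against 0.366% of all tested genes called by edgeR at an adjusted p under 0.05. The log2 fold change was negative for 9 of 10, against 52.9% of all tested genes, with a median of -0.66 against -0.020. At an unadjusted p under 0.05, 7 of 10 were lower, namely ASB1, PAT1, PAI1, PAI2, IGPS, TSA1 and TSB2, against 8.92% of all tested genes. PAI1 and PAI2 differ at 5 of 828 coding bases and many of their reads could come from either. In this and the other counts of the 10 genes they are therefore not independent. Both Col_Kyn libraries lay below both Col_MS libraries for 6 of 10, namely ASB1, PAT1, PAI1, PAI2, IGPS and TSB2, against 23.4% of all tested genes. DESeq2 called 1 of the 10, PAI1, against 1.52% of tested genes called lower. With Col_MS replicate 1 left out, edgeR called 0 of the 10, against 0.194% of tested genes, 2 (PAI1 and PAI2) had an unadjusted p under 0.05, against 14.2%, 7 were negative and the median was -0.13. Without Col_MS replicate 2 it called 9 of the 10 lower, all but ASA2, against 2.43% of tested genes.

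For wei8tar2_MS against Col_MS, 0 of the 10 genes were called, against 1.08% of all tested genes. The difference was negative for 10 of 10, against 53.2%, with a median of -0.63 against -0.023. At an unadjusted p under 0.05, 6 of 10 were lower, against 11.3%. Both mutant libraries lay below both Col_MS libraries for 7 of 10, namely ASA2, ASB1, PAT1, PAI1, PAI2, IGPS and TSA1, against 29% of all tested genes. DESeq2 called 0 of the 10, against 6.25% of tested genes, with 7 at an unadjusted p under 0.05, against 17.3%. Without Col_MS replicate 1, edgeR called 0, against 0.24% of tested genes, 1 gene, PAI1, had an unadjusted p under 0.05, against 17%, and the median was -0.23. Without Col_MS replicate 2 it called 8 lower, all but ASA2 and PAI2, against 3.84% of tested genes. The kynurenine and mutant comparisons share the Col_MS libraries, so their likeness for these genes is not independent.

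**Figure D2:**
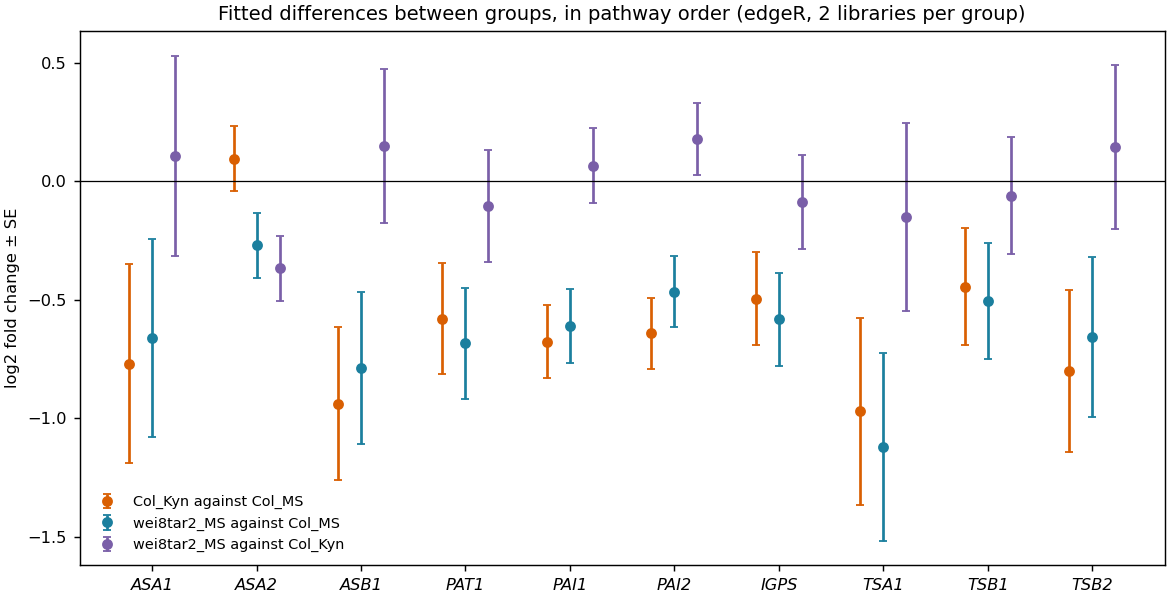
Fitted log2 fold change of each gene in pathway order, with bars of 1 SE from edgeR (2 libraries per group), for Col_Kyn against Col_MS, wei8tar2_MS against Col_MS and wei8tar2_MS against Col_Kyn. The values against Col_MS lie below 0 except that of ASA2 with kynurenine, at 0.10, and the direct comparison stays between -0.37 for ASA2 and 0.18 for PAI2.

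The direct comparison of wei8tar2_MS with Col_Kyn does not set a group against Col_MS, but its standard errors come from the spread in all 6 libraries, the Col_MS pair included. None of the 10 genes was called, against 0.0281% of all tested genes called by edgeR, 1 had an unadjusted p under 0.05 (ASA2), against 4.32%, and DESeq2 called 0, against 0.272%. The difference was negative for 5 of 10, against 53%, with a median of 0.0027 against -0.012 over all tested genes. ASA2 was lower in both mutant libraries than in both Col_Kyn libraries, against 18.8% of tested genes, and ASB1 and PAI2 were higher, against 16.8%. Apart from ASA2, the differences lay between -0.15 for TSA1 and 0.18 for PAI2, with standard errors up to 0.42 for ASA1. Fitted on these 2 groups alone, the standard error was 0.14 for ASA1 and 0.14 for TSA1, against 0.40 for TSA1 with all libraries. That fit in edgeR called 0 of the 10, against 11 of 20995 tested genes, with adjusted p of 0.677 for ASA2 and higher for the others.

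Within Col_MS, replicate 1 exceeded replicate 2 for 10 of the 10 genes, against 50.1% of all tested genes, and by at least 2-fold for 4 of them, against 3.11%. The count ratio, scaled by library size, was 2.91 for ASA1, with an exact 95% binomial interval of 2.62 to 3.24. It was 2.70 for TSA1 (2.53 to 2.88), 2.27 for ASB1 (2.07 to 2.48) and 2.18 for TSB2 (1.84 to 2.58). The next genes were TSB1 at 1.80, PAT1 at 1.74 and IGPS at 1.51. At the low end, the ratio was 1.24 for PAI1 (1.09 to 1.41), 1.20 for PAI2 (1.04 to 1.38) and 1.05 for ASA2 (0.937 to 1.18). These intervals cover counting error only, and ASA2 alone has one that includes 1.

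The median log2 ratio of replicate 1 to replicate 2 was 0.82 for the 10 genes in Col_MS, against 0.00055 over all tested genes, whose 5th and 95th percentiles were -0.66 and 0.76. In Col_Kyn it was 0.14 for the 10 genes, with a range from -0.21 to 0.38, and in wei8tar2_MS it was -0.17, from -0.36 to 0.08. The high values were thus found in 1 of the 3 groups. Across the other 5 libraries, from 3 groups, the highest level of a gene was 1.16 times the lowest for TSB1 and 1.54 times for PAI1, with the other 8 genes between.

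**Figure D3:**
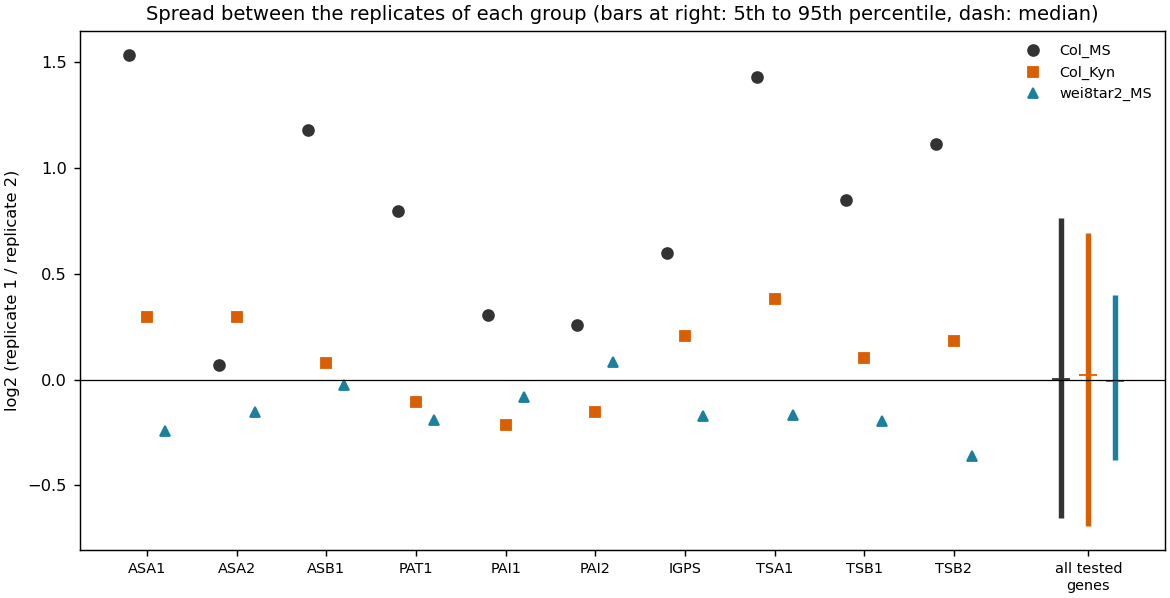
Log2 ratio of replicate 1 to replicate 2 in each group for each gene, with the 5th to 95th percentile of all tested genes as bars and their median as a dash at the right. The Col_MS points of ASA1, ASB1, PAT1, TSA1, TSB1 and TSB2 lie above the 95th percentile of 0.76, and the Col_Kyn and wei8tar2_MS points lie between -0.36 and 0.38.

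Some genes for the use of tryptophan were apart in the same library. CYP71A12, which makes indole-3-acetonitrile for camalexin and related defence compounds, was at 94.9 and 0.351 CPM in Col_MS, and PAD3, the last enzyme of camalexin synthesis, at 62.5 and 1.23 CPM. In the other 4 libraries CYP71A12 lay between 0.224 and 0.954 CPM and PAD3 between 1.38 and 2.48. WRKY33, a transcription factor of pathogen-induced camalexin synthesis, was at 50.5 and 17.8 CPM in Col_MS and at 14.5 to 17.8 elsewhere. It does not stand for the 9 regulator genes as a list. Their median log2 ratio between the Col_MS replicates was -0.035, and the ratio was positive for 4 of the 9. The summed seed reserve markers were also highest in Col_MS replicate 1, mostly through CRA1, at 49.7 CPM. SESA1 and OLEO2, 2 of the 5, were highest in wei8tar2_MS replicate 1. The CYP71A12, PAD3 and WRKY33 values moved with those of the tryptophan genes in Col_MS replicate 1. For CRA1, replicate 1 was the higher library in every group, also under kynurenine (17.6 against 0.686 CPM) and for the mutant line (23.5 against 14.7). Of the 10 tryptophan genes, 7 were higher in that replicate under kynurenine and 1 in the mutant line. The summed root markers moved with the Col_MS group. What part any of these values had in the results was not tested.

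By step, the summed RPKM of the alpha genes was 22.1 and 11.9 without treatment, 14.2 and 11.3 in kynurenine-fed wild type, and 11.2 and 12.8 in the wei8tar2 libraries. That of the isomerase genes was 15.6 and 12.6, 8.09 and 9.02, and 9.71 and 9.63. Tryptophan synthase beta had the highest sums, 99.2 and 53.4, 55.1 and 50.2, and 49.2 and 56.6 RPKM. The beta sum exceeded the TSA1 level in every library, with a ratio of RPKM values of 1.91 and 2.83 in the Col_MS pair, 2.81 and 3.40 under kynurenine and 3.24 and 3.32 in the mutant line. The alpha to beta ratio of anthranilate synthase was 1.04 and 1.28 in untreated wild type, 1.80 and 1.55 with kynurenine and 1.29 and 1.46 in the mutant. Both ratios were lowest in Col_MS replicate 1.

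Per kilobase, the median RPKM over the 6 libraries ran from 51.4 for TSB1, 18.0 for TSA1, 11.5 for PAT1, 10.2 for IGPS and 8.74 for ASB1 to 6.65 for ASA2, 5.88 for ASA1, 5.32 for PAI2, 4.37 for PAI1 and 2.89 for TSB2. The range over the 6 libraries of each gene overlapped that of its neighbour in this order. TSB1 was above TSA1 within every library, and their ranges, 46.6 to 92.6 and 14.8 to 52.0 RPKM, met because of Col_MS replicate 1. With counts taken per kilobase of exon and scaled to the summed gene counts of each library, the medians were 18.5 for IGPS, 15.4 for ASB1 and 14.7 for PAT1, 9.22 for ASA1 and 8.85 for ASA2, and 7.30 for PAI1 and 6.93 for PAI2, so the order within each of these sets changed with the length used, while TSB1 and TSA1 stayed first and TSB2 last.

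**Figure D4:**
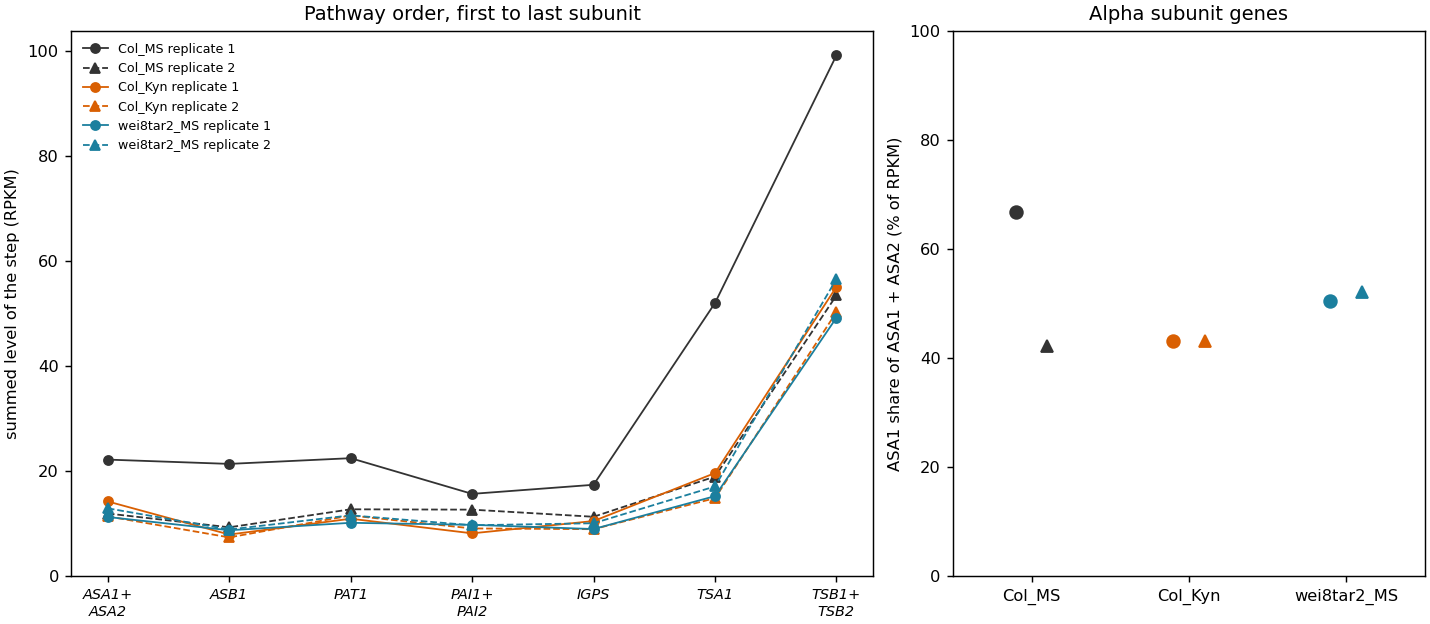
Left, summed RPKM of the genes of each enzyme or subunit in pathway order, 1 line per library. Right, the share of ASA1 in the RPKM of ASA1 and ASA2 in percent. Col_MS replicate 1 is the top line at every step, with 99.2 RPKM for tryptophan synthase beta against 49.2 to 56.6 in the other 5 libraries, and it has the highest ASA1 share, 66.8%.

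Further loci annotated or related to the same steps gave a split picture. Of 11 such loci, 10 were tested and 0 were called in any comparison. The difference was negative for 7 of the 10 with kynurenine and 9 in wei8tar2_MS, against 52.9% and 53.2% of all tested genes, with medians of -0.67 and -0.53. The 4 ASB1 copies are identical in sequence and count as 4 of the 10, so 1 sequence enters these counts and medians 4 times. The other tested loci ranged from -0.82 for AT5G57890 to 0.087 for AT1G70570 with kynurenine. The 4 ASB1 copies on chromosome 1 lay between -0.91 and -0.96 with kynurenine, and AT5G57890, a further ASB1 relative at 95.3% of coding bases, was at 12.9 and 7.48 CPM without treatment, 6.38 and 5.09 in kynurenine-fed wild type, and 5.65 and 6.58 in the wei8tar2 libraries. PAI3 was at 4.37 and 3.05 CPM in Col_MS and 2.46 to 3.27 elsewhere, with -0.52 ± 0.27 with kynurenine (SE; edgeR adjusted p = 0.370). TSBtype2, a second type of tryptophan synthase beta gene, was level, at 67.3 and 63.0 CPM in the Col_MS pair, 69.6 and 63.3 under kynurenine and 59.6 and 70.1 in the mutant line. AT1G70570, AT5G48220 and AT4G02610 had Col_MS log2 ratios of 0.12, 0.036 and 0.14 and differences with kynurenine of 0.087, -0.11 and 0.012. The untested locus, AT5G28237, had at most 3 reads in any library.

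Upstream, the 10 shikimate pathway genes that make chorismate gave 0 calls in any comparison, with medians of 0.014 with kynurenine and -0.078 in wei8tar2_MS and a median Col_MS log2 ratio of 0.069. DHS1, a gene for the entry enzyme of that pathway, was at 84.7 and 60.6 CPM in untreated wild type, 58.0 and 58.2 with kynurenine and 51.5 and 57.0 in the mutant, with -0.32 ± 0.16 and -0.42 ± 0.16 (SE; edgeR adjusted p = 0.355 and 0.198). SK1, a shikimate kinase gene, had 0.26 ± 0.15 with kynurenine, and SK2, another, -0.33 ± 0.16 in wei8tar2_MS (SE; edgeR adjusted p = 0.407 and 0.300). The 12 genes of the phenylalanine and tyrosine branch gave 0 calls, with medians of 0.025 and 0.036. ADT6, an arogenate dehydratase gene, was at 13.7 and 13.2 CPM without treatment, 16.9 and 23.3 in kynurenine-fed wild type, and 22.3 and 21.7 in the wei8tar2 libraries, with 0.57 ± 0.16 and 0.71 ± 0.16 (SE; edgeR adjusted p = 0.170 and 0.0785), and ADT2 had -0.31 ± 0.13 and -0.27 ± 0.13 (SE; edgeR adjusted p = 0.283 and 0.280). Between wei8tar2_MS and Col_Kyn, the largest differences of the shikimate genes were -0.15 ± 0.16 for SK2 and -0.13 ± 0.12 for AT1G22410, and those of the branch were 0.26 ± 0.16 for CM2, a chorismate mutase gene, and -0.24 ± 0.17 for ADT1, another arogenate dehydratase gene (SE; edgeR adjusted p = 1.00 for each).

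Downstream, 8 of the 10 loci that use tryptophan or lead to indolic compounds were tested, and 0 were called with kynurenine. In wei8tar2_MS, 2 fell, the mutated genes TAA1 at -2.24 ± 0.11 and TAR2 at -1.88 ± 0.23 (SE; edgeR adjusted p = 0.000562 and 0.0301). Against Col_Kyn, TAA1 fell by 2.30 in wei8tar2_MS (edgeR adjusted p = 0.000473). CYP79B2, which converts tryptophan to indole-3-acetaldoxime and was chosen after its values were seen, was at 181 and 50.2 CPM in the Col_MS pair, 42.7 and 43.2 under kynurenine and 34.6 and 36.8 in the mutant line, with -1.43 ± 0.49 and -1.70 ± 0.49 (SE; edgeR adjusted p = 0.216 and 0.119). The differences of CYP71A12 with kynurenine, -6.80 ± 2.11, and of PAD3, -4.36 ± 1.44, were not called (SE; edgeR adjusted p = 0.187 and 0.208), and both were far apart between the Col_MS replicates.

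Of 9 regulator genes, 0 were called in any comparison, and their medians were -0.29 with kynurenine and 0.25 in wei8tar2_MS. WRKY33 had -1.01 ± 0.40 and -1.22 ± 0.41 (SE; edgeR adjusted p = 0.269 and 0.154) and MYB51, an activator of indole glucosinolate genes, -0.62 ± 0.30 and -0.53 ± 0.29 (SE; edgeR adjusted p = 0.341 and 0.353). MYB51 was at 43.0 and 20.6 CPM in Col_MS and 19.8 to 22.2 elsewhere. ERF1, an ethylene and jasmonate response factor, was at 1.38 and 1.51 CPM in untreated wild type, 1.12 and 0.858 with kynurenine and 0.477 and 0.512 in the mutant, with -1.54 ± 0.36 in wei8tar2_MS (SE; edgeR adjusted p = 0.0785). MYB122, related to MYB51, had 0.89 ± 0.20 between wei8tar2_MS and Col_Kyn (SE; edgeR adjusted p = 0.633), where ERF1 had -1.02 ± 0.37 (SE; edgeR adjusted p = 1.00).

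**Figure D5:**
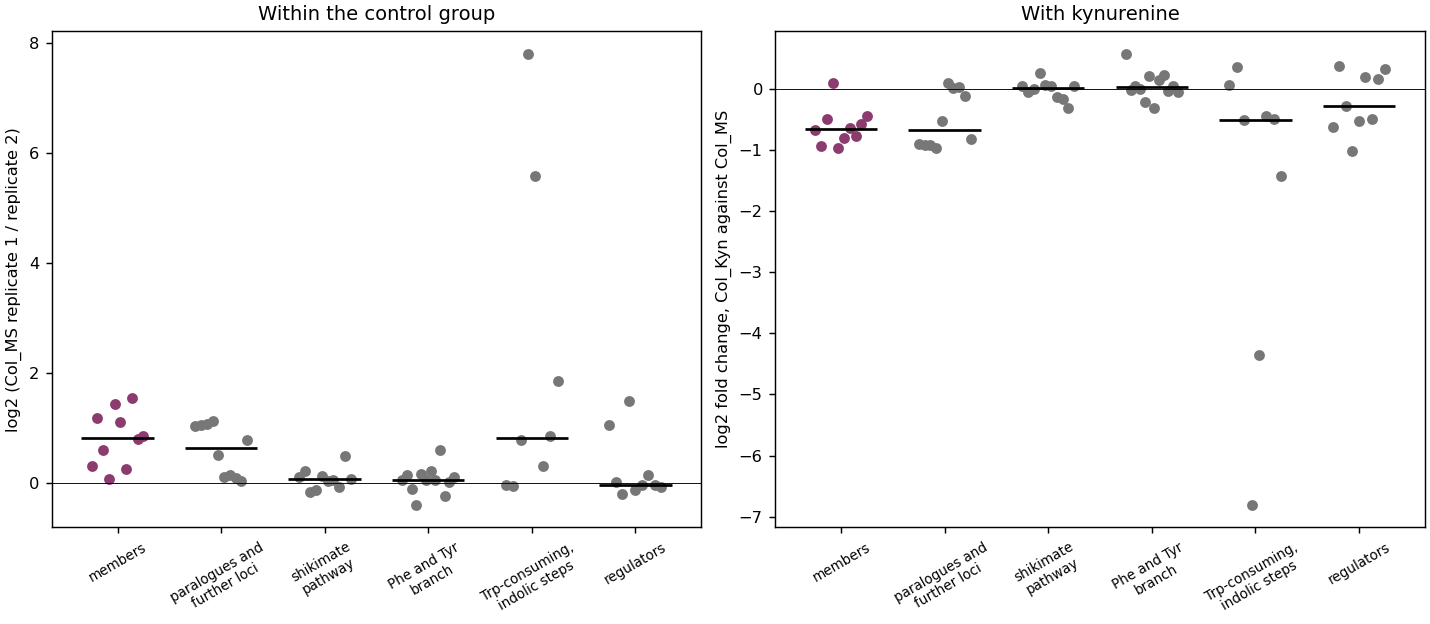
Left, log2 ratio of Col_MS replicate 1 to replicate 2, and right, log2 fold change of Col_Kyn against Col_MS, for each tested gene of 6 lists, with a line at each list's median. The medians of the tryptophan genes, 0.82 and -0.66, stand beside 0.069 and 0.014 for the shikimate pathway and 0.057 and 0.025 for the phenylalanine and tyrosine branch, and the outlying points are CYP71A12 and PAD3.

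The promoters of ASA1, ASB1 and TSB2 are shown because these genes were at least 2-fold higher in Col_MS replicate 1 and no other gene overlaps their window, unlike that of TSA1. The letters are the 250 bases before the annotated start, in the direction of the gene, from RefSeq TAIR10.1, at chr5:1722934-1723183 and chr1:8839610-8839859, minus strand, and chr4:13586018-13586267, plus strand. Capitals mark TTGAC, the core of the W-box that WRKY factors are known to bind, which was searched on both strands and had no match in TSB2.
ASA1 upstream: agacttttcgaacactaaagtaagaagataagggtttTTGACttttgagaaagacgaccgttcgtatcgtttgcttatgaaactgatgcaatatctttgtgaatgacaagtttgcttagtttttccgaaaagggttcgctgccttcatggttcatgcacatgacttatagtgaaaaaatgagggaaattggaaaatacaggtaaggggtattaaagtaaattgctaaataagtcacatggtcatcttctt
ASB1 upstream: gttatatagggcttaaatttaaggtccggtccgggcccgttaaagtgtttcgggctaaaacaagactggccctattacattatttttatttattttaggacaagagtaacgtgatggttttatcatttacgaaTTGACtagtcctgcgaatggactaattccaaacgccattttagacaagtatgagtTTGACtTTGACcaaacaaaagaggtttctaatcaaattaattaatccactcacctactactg
TSB2 upstream: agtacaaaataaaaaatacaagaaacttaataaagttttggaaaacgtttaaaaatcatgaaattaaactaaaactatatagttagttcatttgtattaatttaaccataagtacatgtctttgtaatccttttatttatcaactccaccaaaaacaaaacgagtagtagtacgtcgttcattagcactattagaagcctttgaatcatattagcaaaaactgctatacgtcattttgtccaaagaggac

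In a window of 250 bases before to 50 bases after the start, TTGAC was found in 8 of the 10 genes and in 50.5% of 27443 promoters. The longer W-box, TTGACC or TTGACT, of which every match contains the core, was found in 7 of 10, all but PAI1, TSB1 and TSB2, and in 32.4% of promoters. In ASA1 it began 213 bases before the start, and in ASB1 at 117, 62 and 56 bases before it. CACGTG, the G-box, was found in ASB1 and IGPS, against 7.68% of promoters. GCCGCC, the GCC-box, and TGTCTC, the auxin response element, were found in 0 of the 10 genes, against 2.57% and 14.2%. The upstream bases of PAT1, PAI1 and TSA1 overlap another gene. Among the 8 genes with the core, the Col_MS count ratio of replicate 1 to replicate 2 ran from 1.05 for ASA2 to 2.91 for ASA1. For TSB1 and TSB2, which lack it, the ratio was 1.80 and 2.18. Whether the motif has a part in these ratios was not tested. A match is a description of letters in this window.

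Among 7416 other genes with a RefSeq symbol and a mean log2 CPM of at least 2, those most like the mean of the 10 genes over the 6 libraries were IDN2, a factor of RNA-directed DNA methylation, and NIA1, a nitrate reductase gene, both with a Pearson r of 0.996. ICU2, a DNA polymerase subunit gene, had 0.994, and FRO3, a ferric reductase gene, and SERK4, a receptor kinase gene, 0.993. NIA1 was at 710 and 330 CPM without treatment, 332 and 298 in kynurenine-fed wild type, and 292 and 325 in the wei8tar2 libraries, again highest in Col_MS replicate 1. Without that library, r over the other 5 was 0.913 for IDN2, 0.922 for NIA1, 0.872 for ICU2, 0.870 for FRO3 and 0.839 for SERK4. All points share library and depth, and the genes were picked as the highest of all candidates.

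Among the 10 genes themselves, r of a gene to the mean of the other 9 over the 6 libraries was 0.287 for ASA2, 0.792 for PAI2, 0.836 for PAI1, 0.919 for ASA1 and 0.973 to 0.986 for the other 6. Without Col_MS replicate 1 it was 0.94 for IGPS and -0.13 for ASA1, with the other 8 between 0.20 and 0.73. The high values over 6 libraries thus rest to a large part on that 1 library.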

How the data were processed

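Random-hexamer cDNA was made from fragmented mRNA and amplified by PCR, per the labels' protocols. The submitters' processing notes name TopHat 1.3.0 and TAIR10. The deposited tables give uniquely mapped reads per gene as raw counts per the file headers, and RPKM values by the authors, that is the count over the listed length and the header total. Which program counted the reads, with which strand option and annotation, is not given in the sources used here. A gene missing from a table was set to 0, and the smallest listed count was 1. A count of 0 can arise by sampling where up to about 3 reads are expected, or 0.0943 to 0.165 CPM.

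Counts were fitted for all 6 libraries in R 4.3.3 with edgeR 4.0.16 (TMM factors of 0.964 to 1.03, filterByExpr by group, quasi-likelihood F-test), with Benjamini-Hochberg adjustment over all 21326 tested genes and a threshold of 0.05. Standard errors are absolute log2 fold changes over the root of F. DESeq2 1.42.0, limma-voom (limma 3.58.1), other filters and scalings, a replicate block and each library left out served as alternatives, and the edgeR code was tested on simulated data. Libraries were not paired, because the labels state no day shared by equal replicate numbers. Deviations of equal replicate numbers correlated at 0.202 between Col_MS and Col_Kyn. The values were 0.0220 between Col_MS and wei8tar2_MS and -0.0390 between Col_Kyn and wei8tar2_MS. A shared replicate effect is not excluded by these values. Sequences, coordinates and symbols came from RefSeq TAIR10.1, matched by locus name. The 10 genes, the lists and the naming rule were chosen with earlier results of these data known. Named are the 10 genes, their paralogues, in other lists the called genes or, where none was called, those with the 2 largest differences in each comparison, the 5 genes most alike in pattern, and CYP71A12 and PAD3. CYP79B2 and CYP79B3 were named outside this rule, after their values were seen.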

Additional observations from a re-analysis of the deposited data

How the results depend on the processing

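With TMM and edgeR on 6 libraries, 78 genes were called with kynurenine, 230 in wei8tar2_MS and 6 between both. In the same order, DESeq2 called 750, 1333 and 58, a fit with no filter on low counts 409, 1113 and 26, and the replicate block 130, 367 and 12. limma-voom called 50 with kynurenine, plain library totals 12 in the direct comparison, and fits of only the 2 groups compared 0, 352 and 11, the 0 with 2384 genes at an unadjusted p under 0.05. Leaving out 1 library each gave 0 to 1080, 4 to 1719 and 4 to 17, highest against Col_MS without Col_MS replicate 2. Among the 10 genes, DESeq2 called 1 with kynurenine, and leaving out 1 library gave 0 to 9 called with kynurenine and 0 to 8 in wei8tar2_MS. The replicate block changed no call of the 10 genes.

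Of 180 differences of the 10 genes recomputed with every library of the groups compared, 179 kept sign and side of the threshold and 1, PAI1 by DESeq2, passed it. Of these 180, 30 came from fits of only the 2 groups compared and the others from all 6 libraries. With 1 library left out, 151 kept both, 17 passed, all without Col_MS replicate 2, and 12 changed sign. Those that changed sign ranged from -1.32 to 0.20 with kynurenine, from -1.21 to 0.30 in wei8tar2_MS and from -0.017 to 0.27 directly for ASA1, from -0.065 to 0.23 with kynurenine for ASA2, from -0.79 to 0.040 with kynurenine and -0.16 to 0.035 directly for TSB1, and from -1.08 to 0.0086 in wei8tar2_MS and -0.047 to 0.32 directly for TSB2. Direct differences ranged from -0.043 to 0.19 for PAI1, -0.17 to 0.023 for IGPS and -0.31 to 0.055 for TSA1. The lone library of a group is then assumed to vary like the others, and the cause of these shifts was not tested. Of 18 paralogue shares taken from counts or per exonic base, the latter chosen after seeing the data, 12 moved by more than 1 SD. The 10 genes had at least 109 reads in each library.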
